A study of Mus musculus with 232 samples.

Results

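Immature granule cells of the mouse dentate gyrus were taken as the cells that the depositors' barcode table assigns to the cluster Immature-GC, at all 8 ages. They numbered 2419 of 24185 cells. Single cells had been captured on the 10X Chromium system, kit version 2, which tags each RNA molecule with a unique molecular identifier (UMI), and the values are UMI counts per gene and cell. The perinatal ages were E16.5, P0 and P5, all from CD-1 mice whose sex the labels give as unknown. The juvenile ages were P18 and P23, from male CD-1 mice, and P19, from female C57Bl/6 mice. The adult ages were P120, a pool of 2 males and 1 female, and P132, a pool of 3 males and 1 female, both of the hGFAP-GFP line. In that line the human GFAP promoter, which is active in astrocytes and neural stem cells, drives the green fluorescent protein GFP. Only cells sorted for GFP were captured there, and whether each adult immature granule cell carried GFP was not tested. All tissue was microdissected dentate gyrus dissociated with papain. Each age had its own animals and its own libraries, so that age, litter and library cannot be told apart, and P19 differed from P18 and P23 in strain and sex as well.

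Granule cells are the glutamatergic principal neurons of the dentate gyrus, and their birth continues after development in the subgranular zone. A neural stem cell gives rise to an intermediate progenitor, then to a neuroblast, and then to an immature granule cell that no longer divides, extends its dendrites and its mossy fibre axon, and expresses doublecortin and for a time calretinin. GABA acts on such young neurons as a depolarizing transmitter until the potassium chloride cotransporter KCC2 takes over from NKCC1, and glutamatergic synapses follow. Prox1 is the homeobox factor that specifies and maintains granule cell identity, and calbindin marks the mature cell.

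Immature-GC held 37 cells at E16.5, 436 at P0, 1271 at P5, 257 at P18, 146 at P19, 232 at P23, 14 at P120 and 26 at P132. Summed over its cells, the cluster had 209005 UMIs at E16.5, 2087810 at P0, 6801553 at P5, 469946 at P18, 311092 at P19, 1071208 at P23, 42308 at P120 and 47744 at P132. The median cell had 4227 to 4974 UMIs at the perinatal ages and at P23 4525, but 1717 at P18, 1901 at P19 and 1772 to 2310 in adults. With cells thinned to an equal 1000 UMIs, the median Immature-GC cell showed 593 to 660 genes, depending on the age. P0, P5 and P132 had 2 libraries each, and across genes at 50 CPM or more (CPM, a gene's UMIs divided by all UMIs of the cluster at that age, times 1000000) the log2 levels of the cluster correlated with r of 0.960 between the P0 libraries and 0.996 between those of P5. Of 23725 different barcodes in the table, 456 occurred in more than 1 library, and 78 of these barcodes were carried by Immature-GC cells. Xist, expressed from the inactive X chromosome, had 646 UMIs in the cluster at E16.5 against 0 of 4 Y-linked genes together, and 1 UMI at P5, where the Y-linked genes were present. The perinatal pools therefore differed in sex between ages, while the juvenile ages showed the sex on their labels.

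Prox1 was high in these cells and in the granule cell clusters, and each of the other 3 markers was higher in another cluster. Prox1 stood at 550, 597 and 765 CPM at E16.5, P0 and P5, at 681, 611 and 572 CPM at P18, P19 and P23, and at 922 and 628 CPM at P120 and P132. The mean over the 6 unsorted ages, 629 CPM, was the highest of 23 clusters, close to the 583 CPM of juvenile granule cells (cluster GC-juv) and above the 450 CPM of GC-adult, while endothelial cells, which should lack the gene, had 35.0 CPM. Perinatal and juvenile levels of Prox1 overlapped. After thinning, 32.4% to 51.5% of Immature-GC cells at the unsorted ages held a Prox1 UMI, against 0% to 5.26% of endothelial cells. Without thinning the range in Immature-GC was 66.4% to 95.0%, with median depths of 1717 to 4974 UMIs against 2141 to 8000 UMIs in endothelial cells.

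Dcx, which encodes the microtubule protein doublecortin of migrating and newborn neurons, stood at 416, 420 and 404 CPM at the perinatal ages, at 172, 238 and 213 CPM at the juvenile ages, and at 520 and 314 CPM in adults. Every perinatal age lay above every juvenile age. The cluster ranked 4 of 23 for Dcx, after Immature-GABA, Immature-Pyr and Neuroblast, and also 4 for Fxyd7, after CA3-Pyr, Immature-Pyr and Immature-GABA. Calb2, which encodes calretinin, ranged widely, at 368, 211 and 142 CPM at the perinatal ages, 162, 476 and 223 CPM at the juvenile ages, and 118 and 796 CPM in adults. The perinatal and juvenile ages overlapped for Calb2, and the higher of the unsorted ages were E16.5 and the C57Bl/6 age P19. Neuroblasts had a mean Calb2 level of 673 CPM against 264 CPM in Immature-GC. Fxyd7, a small regulator of the sodium pump, had no UMI at E16.5 and reached 16.3 CPM at P0, 167 CPM at P5, 157 CPM at P18, 41.8 CPM at P19 and 283 CPM at P23, with 70.9 and 41.9 CPM in adults. Its levels thus overlapped between stages, with P19 low among the juveniles. Of endothelial cells thinned to 1000 UMIs, at most 5.88%, depending on the age, held an Fxyd7 UMI. The shares of Immature-GC cells at P0, 2.06%, and at P19, 2.74%, were below that maximum. The endothelial mean over ages with 20 or more cells was 9.16 CPM, below the 16.3 and 41.8 CPM of Immature-GC at P0 and P19. The shares were set against a maximum over ages and the levels against a mean. The 2 comparisons therefore do not settle whether these ages lie above background.

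**Figure D1:**
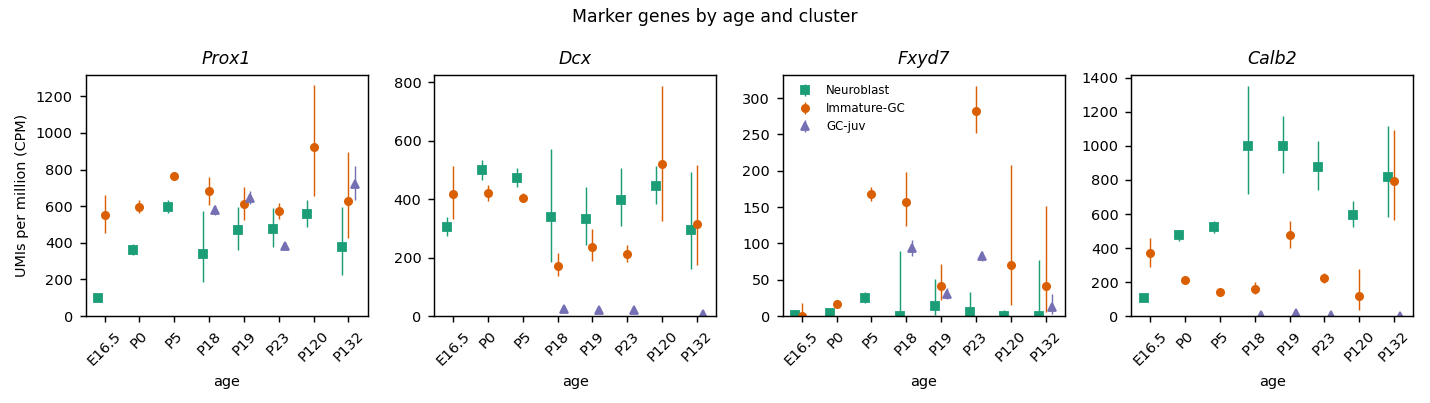
CPM of the 4 marker genes (vertical axis) by age (horizontal axis) in Neuroblast, Immature-GC and GC-juv, 1 point per cluster and age with 20 or more cells or adult cells, and bars for the 95% Poisson interval of counting error. Prox1 in Immature-GC lies between 550 and 922 CPM, Dcx is near 0 in GC-juv, and Calb2 is at 142 to 476 CPM in Immature-GC at the unsorted ages.

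Among 3052 genes with a mean of 50 CPM or more in the cluster, 74 had their highest mean over all clusters in Immature-GC. The largest leads were those of Crabp1, which encodes a cytosolic retinoic acid binding protein (82 CPM against 23 CPM in the next cluster, VLMC), Rerg, a small GTPase of the Ras family (119 against 47.6 CPM in CA3-Pyr), and Gal, the precursor of the neuropeptide galanin (115 against 58.3 CPM in Neuroblast). Rerg was present at every age, at 144, 89.1 and 83.7 CPM at the perinatal and 93.6, 209 and 96.2 CPM at the juvenile ages. Gal likewise stood at 134, 115 and 56.3 CPM and then at 157, 145 and 79.3 CPM. Crabp1, by contrast, had 14 UMIs in all 3 juvenile sums and 1443 in the perinatal ones. These genes entered the clustering, so the figures describe the cluster and test nothing.

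The number of immature granule cells was set against that of the class before them. Per Neuroblast cell there were 0.1796, 0.956 and 2.98 Immature-GC cells at E16.5, P0 and P5, and 10.7, 2.18 and 4.94 at P18, P19 and P23. P5 lay above P19, so the stages overlapped. The mean log2 ratio was 2.60 higher in juveniles, with SDs on the log2 scale of 2.04 at the perinatal and 1.15 at the juvenile ages, and it did not pass the test (exact permutation p 0.2, two-sided, 3 against 3 ages, smallest possible p 0.1). Without E16.5 the difference was 1.53 (exact permutation p 0.4). In the GFP-sorted adults the ratio was 0.108 at P120 and 1.04 at P132. Immature-GC made up all 37 and 436 granule lineage neurons (Immature-GC with the granule cell clusters) at E16.5 and P0, 99.4% of them at P5, and 12.9% to 17.3% at the juvenile ages. In the sorted adults the share was 21.9% at P120 and 1.14% at P132. The granule cell clusters held 50 of 1363 cells at P120 and 2250 of 3829 cells at P132.

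Next, Immature-GC was compared with Neuroblast and with GC-juv at the same age, the classes before and after it in the lineage. Because the authors' clusters rest on these same genes, the differences are descriptions without a test. Log2 differences are of CPM + 1, as medians over the ages with 20 or more cells in both clusters, 7 for Neuroblast (the unsorted ages and P132) and 4 for GC-juv (P18, P19, P23 and P132). Of 3503 genes with 50 CPM or more, 942 differed from Neuroblast in the same direction at all 7 ages, 278 of them with a median above 1 and 165 with a median below -1. Of 4110 genes, 2843 differed from GC-juv in the same direction at all 4 ages, 397 with a median above 1 and 933 with a median below -1.

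Transcription factors of the progenitor and neuroblast stages were nearly gone from Immature-GC. Eomes, the T-box factor of intermediate progenitors, stood at 19.1, 5.75, 5.88, 2.13, 0 and 0 CPM from E16.5 to P23, against 397, 281, 253, 195, 142 and 214 CPM in neuroblasts (median log2 difference -5.97). The same was seen for Neurod4 (-5.66) and Neurog2 (-4.66), both proneural factors. Of 9 progenitor and neuroblast markers at 50 CPM or more, 6 were lower at every age and none was higher at every age, with a list median of -2.88 where all genes had -0.02.

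Within the granule lineage factors the picture was split. Bcl11b (Ctip2) was higher than in neuroblasts at all 7 ages (median 3.22), as were Mef2c (2.68), Bhlhe22 (1.84), Neurod2 (0.97) and Prox1 (0.72). Sox4 (-1.77), Emx1 (-1.44) and Nfib (-0.99) were lower at all 7 ages. Against juvenile granule cells the order turned round: Sox11 (3.68), Sox4 (3.58), Neurod6 (3.42) and Neurod1 (2.42) were higher in Immature-GC at all 4 ages, while Klf9 (-1.79), Mef2c (-1.73) and Bcl11b (-1.22) were lower at all 4. Prox1 itself differed from GC-juv by 0.08, higher at 2 of 4 ages.

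The cytoskeletal and growth cone genes of newborn neurons were shared with neuroblasts and separated Immature-GC from juvenile granule cells. Of 18 such genes, 6 were higher and 2 lower than in Neuroblast at every age (median 0.06), and 16 were higher and none lower than in GC-juv at every age (median 3.15, all genes -0.27). Cd24a, a surface glycoprotein of young neurons, stood at 272, 614 and 395 CPM at P18, P19 and P23 against 10.1, 6.45 and 5.20 CPM in GC-juv, a median log2 difference of 6.18. Igfbpl1 (5.75), the thymosin Tmsb10 (4.41) and the tubulin-binding stathmins Stmn1 (4.35) and Stmn2 (3.51) followed. Stmn2 was also higher than in neuroblasts at all 7 ages (1.73), as were Map1b (1.38) and Gap43 (1.01). Among migration and guidance genes, the reelin adaptor Dab1 (2.70) and the semaphorin receptors Nrp2 (1.84) and Nrp1 (1.46) were higher than in neuroblasts at all 7 ages, and the chemokine receptor Cxcr4 was lower (-4.22). The secreted semaphorin Sema3c was at a level like that of neuroblasts (-0.19) and far above GC-juv (5.23).

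Genes of synaptic transmission lay between the neighbours. Of 5 GABA-A receptor genes at 50 CPM or more, 4 were higher than in Neuroblast at every age and none lower (list median 2.05), and of 8 genes of the same list 7 were lower than in GC-juv at every age (median -1.58). Gabra5, which encodes the alpha5 subunit of extrasynaptic receptors, was the exception: it stood at 257, 289 and 254 CPM at P18, P19 and P23 and differed from GC-juv by 0.05, while it exceeded neuroblasts by 4.30. Slc12a5, which encodes KCC2, was 2.37 lower than in GC-juv. Of the glutamate receptor and postsynaptic genes, 9 of 12 were higher than in Neuroblast at every age (median 2.22) and 15 of 16 lower than in GC-juv (median -1.66). Grm5 (3.44 against Neuroblast, -1.09 against GC-juv), Grin2a (2.93 and -3.02) and Camk2a (2.53 and -2.69) show the range. Of the synaptic vesicle genes, 5 of 12 were higher than in Neuroblast and 9 of 11 lower than in GC-juv at every age.

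Mature granule cell markers were led by C1ql3, a secreted synapse organizer, whose difference from neuroblasts was the largest among the genes that were higher in Immature-GC (5.81). It stood at 23.9, 55.1 and 307 CPM at E16.5, P0 and P5 and at 330, 99.6 and 414 CPM at P18, P19 and P23, against at most 21.2 CPM in neuroblasts. Of 10 mature markers, 9 were lower than in GC-juv at every age (median -2.83), among them Rasgrf2 (-3.55) and Calb1 (-3.21). Among sodium pump genes, the beta subunit gene Atp1b1 was higher than in neuroblasts (1.57) and lower than in GC-juv (-2.40). The regulators Fxyd7 (1.24) and Fxyd6 (3.53) were higher than in GC-juv at all 4 ages. Ribosomal protein genes were higher than in GC-juv for 81 of 82 genes (median 1.09).

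**Figure D2:**
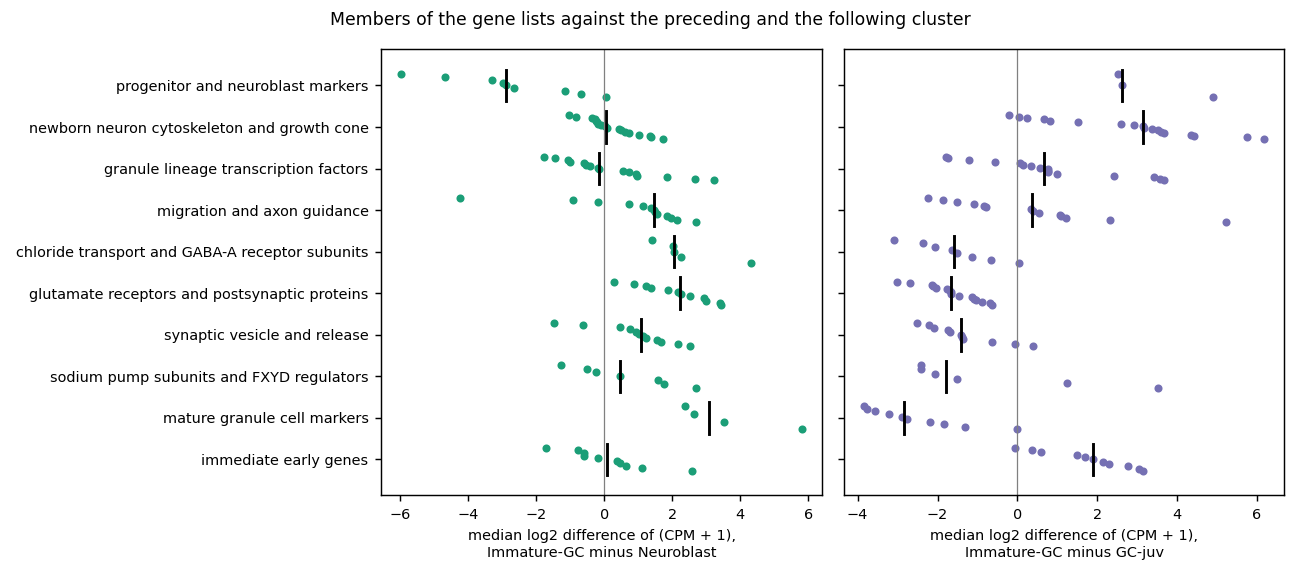
Median log2 difference of CPM + 1 (horizontal axis) for each gene at 50 CPM or more in 10 gene lists (vertical axis), Immature-GC minus Neuroblast over 7 ages on the left and minus GC-juv over 4 ages on the right, with 1 point per gene and a black bar at the list's median. Synaptic and mature granule cell genes lie mostly right of 0 against Neuroblast and left of 0 against GC-juv, and newborn neuron genes lie mostly right of 0 against GC-juv (median 3.15).

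The same class was then compared between stages, to ask whether an immature granule cell found around birth differs from one found some weeks later. UMIs were summed per age, and the 3 juvenile sums were tested against the 3 perinatal sums with edgeR's quasi-likelihood test and Benjamini-Hochberg adjustment. Of 7594 genes tested, 39 (0.514%) passed an adjusted p of 0.05, 14 higher (0.184%) and 25 lower (0.329%) in juveniles, and 1558 (20.5%) did not overlap between the stages. The median log2 change over all genes was near 0. The number of genes passing the test moved with single ages: it was 11 without P0, 10 without P18, 13 without P19, 11 without P23 and 559 without P5, of which 343 were higher and 216 lower. For the 39 genes, P5 lay a median of 19.3% of the way from the mean of E16.5 and P0 to the juvenile mean, and on the juvenile side for 30. In bulk sums of this kind, fewer cells expressing a gene and less RNA per cell cannot be told apart.

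Among the genes that rose were 5 immediate early genes, which neurons transcribe within minutes of activity or stress. Junb, a subunit of the AP-1 transcription factor, stood at 19.1, 67.1 and 155 CPM at E16.5, P0 and P5 and at 1030, 1459 and 1168 CPM at P18, P19 and P23. Every juvenile age lay above every perinatal age, which was a condition for naming the gene. Junb rose by 3.75 ± 0.43 (log2 fold change ± SE, n = 3 ages against 3, edgeR adjusted p 0.00281). It passed the test under all 12 alternatives in processing (highest adjusted p 0.0241). In the 2 libraries of P0 it stood at 53.3 and 80.5 CPM. Junb also rose without overlap in all other cells, from 63.9, 123 and 169 CPM to 242, 198 and 472 CPM.

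Egr1, a zinc finger factor used as a marker of neuronal activity, stood at 9.57, 27.3 and 48.5 CPM and then at 106, 328 and 286 CPM. It rose by 2.80 ± 0.42 (edgeR adjusted p 0.0133), a call lost without P0 or P23 (highest adjusted p 0.101). Npas4, a neuron-specific factor induced by calcium entry, stood at 4.78, 7.18 and 12.4 CPM and then at 25.5, 106 and 95.2 CPM. It rose by 2.95 ± 0.46 (edgeR adjusted p 0.0189), with the call lost without P0, P19 or P23 (highest adjusted p 0.143). P18 was the lowest juvenile age for both genes. Ier2 rose from 124, 96.3 and 58.1 CPM to 211, 334 and 310 CPM (1.70 ± 0.31, edgeR adjusted p 0.0297). Jun, another AP-1 subunit, rose from 86.1, 230 and 184 CPM to 428, 675 and 474 CPM (1.58 ± 0.29, edgeR adjusted p 0.0351). Both calls were lost without P0, P18, P19 or P23, that of Jun also without E16.5 and that of Ier2 also without the 5% of cells with the most UMIs (highest adjusted p 0.129 for Jun and 0.175 for Ier2). In all other cells the stages of Egr1, Npas4, Ier2 and Jun overlapped. Ier2 stood there at 85.2, 112 and 120 CPM and then at 34.3, 46.2 and 91.3 CPM.

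Of the 20 immediate early genes listed, 11 passed the filter on low counts, 5 rose and none fell in edgeR, with a median log2 change of 1.70, and DESeq2 called 7 higher and 1 lower. The members that did not pass included Fosb (1.95), Btg2 (1.72), Fos (1.24) and Jund (1.05), and Ier5 had a negative change (-1.54). The count of 5 became 4 without E16.5, 1 without P0, 7 without P5 (with 1 lower), 3 without P18, 2 without P19 and 1 without P23. The summed list stood at 1244, 1148 and 1229 CPM at the perinatal ages and at 2628, 5757 and 3996 CPM at the juvenile ages. Heat shock genes, a list that also responds to stress, had 0 of 7 passing the test in edgeR or DESeq2, with 1 lower at an unadjusted p under 0.05 in edgeR and a median of -0.28. The part of tissue dissociation in these values was not tested.

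The promoters of the immediate early genes are shown because several of these genes rose together and respond to the factor CREB, which binds the word TGACGTCA or its shorter core TGACG. The 250 bases before the RefSeq start site (assembly GRCm38.p6, 5′ to 3′ on the gene's own strand) are given for Junb at chr8:84978749-84978998 and for Jun at chr4:95052223-95052472, both on the minus strand, with TGACG or its reverse complement CGTCA in capitals.
Junb: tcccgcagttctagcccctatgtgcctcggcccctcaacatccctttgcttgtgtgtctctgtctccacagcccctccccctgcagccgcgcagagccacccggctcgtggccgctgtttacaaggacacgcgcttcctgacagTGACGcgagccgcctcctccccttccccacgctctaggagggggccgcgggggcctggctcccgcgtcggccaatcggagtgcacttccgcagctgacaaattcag
Jun: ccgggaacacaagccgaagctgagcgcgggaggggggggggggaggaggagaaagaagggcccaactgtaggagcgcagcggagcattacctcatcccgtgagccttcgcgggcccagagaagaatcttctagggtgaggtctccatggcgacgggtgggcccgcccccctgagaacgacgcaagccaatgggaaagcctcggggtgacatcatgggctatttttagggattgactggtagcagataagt
The Junb sequence holds 1 TGACG, 106 bases before the start, and the Jun sequence holds neither word. Promoters were found for 3 of the 5 genes that rose (Junb, Npas4 and Jun), and 2 of the 3 held TGACG on either strand, Npas4 with 2 words. Among 12 listed genes that did not pass the test, 10 held it. Of all 32851 RefSeq promoters of this length, 17.8% held TGACG, 1.55% the full TGACGTCA, 4.46% the AP-1 word TGACTCA and 0.536% the EGR word GCGTGGGCG, on either strand, and none of the latter 3 was found before Junb, Npas4 or Jun. TGACG is contained in TGACGTCA. These are matches of letters and say nothing of binding. Junb itself lies at chr8:84974484-84978718 in the GENCODE annotation of GRCm38, where its exons overlap those of Prdx2 on the other strand, and the exons of Jun overlap Junos.

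Of the neuronal genes outside these lists that rose, Scn2b, which encodes a beta subunit of voltage-gated sodium channels, stood at 4.78, 9.10 and 16.8 CPM and then at 38.3, 48.2 and 62.5 CPM. Its log2 change was 2.02 ± 0.36 (edgeR adjusted p 0.0297, highest 0.223 over alternatives). The protocadherin gene Pcdh20, for a cell adhesion molecule, rose from 19.1, 18.7 and 38.7 CPM to 121, 80.4 and 77.5 CPM (1.75 ± 0.35, edgeR adjusted p 0.0487, highest 0.298). Vstm2b, a membrane protein of the immunoglobulin superfamily, rose by 2.00 ± 0.39 (edgeR adjusted p 0.0425, highest 0.264). In each of the 3 genes the stages did not overlap, which was a condition for naming them. Each call was lost without P0, P18, P19 or P23 and without the 5% of cells with the most UMIs. That of Pcdh20 was also lost without E16.5. In all other cells Scn2b rose as well, from 3.33, 8.32 and 15.4 CPM to 173, 396 and 159 CPM. There Pcdh20 rose from 9.81, 15.3 and 20.5 CPM to 199, 175 and 103 CPM, and the stages of Vstm2b overlapped. The part of free RNA in these rises was not tested.

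Apart from the haemoglobin genes, Crabp1 had the largest decrease among the named genes. It stood at 86.1, 254 and 131.6 CPM at E16.5, P0 and P5, and at 12.8, 0 and 7.47 CPM at P18, P19 and P23, that is 1443 UMIs over the perinatal and 14 over the juvenile sums. It fell by 4.44 ± 0.54 on the log2 scale (edgeR adjusted p 0.00395) and kept the call under all alternatives but the omission of P23 (0.0585). P120 again had 118 CPM, from 14 cells. In all other cells of the same ages Crabp1 stood at 22.6, 15.1 and 10.7 CPM and then at 0.920, 0.323 and 0.519 CPM.

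Meis2, Fezf2, Nfix, Lhx2 and Chd7, which no list fixed for these data groups together, also fell. Meis2, a homeobox factor of the TALE class, stood at 86.1, 48.4 and 63.8 CPM and then at 8.51, 0 and 7.47 CPM (fell by 3.29 ± 0.49, edgeR adjusted p 0.0133, lost without P18 or P23, highest 0.0786). Fezf2, known as the factor that specifies subcortical projection neurons of the neocortex, stood at 172, 122 and 70.0 CPM and then at 23.4, 16.1 and 23.3 CPM (fell by 2.40 ± 0.40, edgeR adjusted p 0.0263, lost without P0, P18, P19 or P23, highest 0.124). Fezf2 was listed here as a pyramidal neuron marker, and the other 2 tested markers of that list, Crym (-0.83) and Grik4 (-0.14), did not pass. The 8 pyramidal markers summed to 259 to 517 CPM at the perinatal and 103 to 291 CPM at the juvenile ages. Nfix, a nuclear factor I gene, fell from 1167, 1386 and 1091 CPM to 379, 508 and 540 CPM (1.37 ± 0.22, edgeR adjusted p 0.0216), and in all other cells it stood at 985, 984 and 704 CPM and then at 155, 234 and 213 CPM. The LIM homeobox gene Lhx2 fell by 1.38 ± 0.27 and the chromatin remodeller gene Chd7 by 2.48 ± 0.47 (edgeR adjusted p 0.0460 and 0.0387). The stages of all 5 genes were apart without overlap, which was a condition for naming Meis2, Fezf2 and Chd7. The calls of Nfix, Lhx2 and Chd7 were lost without P0, P18, P19 or P23. These were not the only losses for Chd7, which was called in 5 of 10 alternatives with an adjusted p. In all other cells Fezf2 stood at 220, 129 and 62.3 CPM and then at 12.3, 13.3 and 17.0 CPM. Lhx2 and Chd7 were there also lower at every juvenile than at every perinatal age, and Meis2 overlapped between stages.

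Of the signalling and adhesion genes, Socs2, an inhibitor of cytokine and growth hormone signalling, fell from 258, 205 and 116 CPM to 31.9, 70.7 and 44.8 CPM (1.99 ± 0.37, edgeR adjusted p 0.0349). The semaphorin receptor Nrp2 fell from 383, 369 and 321 CPM to 134, 164 and 154 CPM (1.25 ± 0.22, edgeR adjusted p 0.0279). Its relative Nrp1 stood at 440 to 554 CPM and then at 343 to 402 CPM and did not pass (-0.41, edgeR adjusted p 0.386). Chn2, which encodes beta2-chimaerin, a regulator of Rac, fell by 2.74 ± 0.47 (edgeR adjusted p 0.0279), from 411 UMIs over the perinatal to 14 over the juvenile sums, with exons that overlap 9130019P16Rik and Gm15527. Gm15594, a transcript annotated antisense to Cttnbp2 with overlapping exons, stood at 62.2, 57 and 57 CPM and then at 4.26, 6.43 and 1.87 CPM (fell by 4.08 ± 0.45, edgeR adjusted p 0.00281). Whether its reads can be told from those of Cttnbp2 depends on the strand setting of the counting, which is not given in the sources used here. Trp53i11 fell by 2.81 ± 0.55 (edgeR adjusted p 0.0425). The calls of Socs2, Nrp2 and Trp53i11 were lost without P0, P18, P19 or P23 (highest adjusted p 0.191, 0.175 and 0.283), and that of Chn2 without P0, P18 or P23 (0.152). These were not the only losses for Trp53i11 and Chn2, which were called in 5 of 11 and 7 of 11 alternatives with an adjusted p. Gm15594 kept its call under every alternative that gave it an adjusted p (highest 0.0241). In all other cells Socs2, Nrp2, Gm15594 and Trp53i11 were also lower at every juvenile than at every perinatal age, while Chn2 overlapped between stages.

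**Figure D3:**
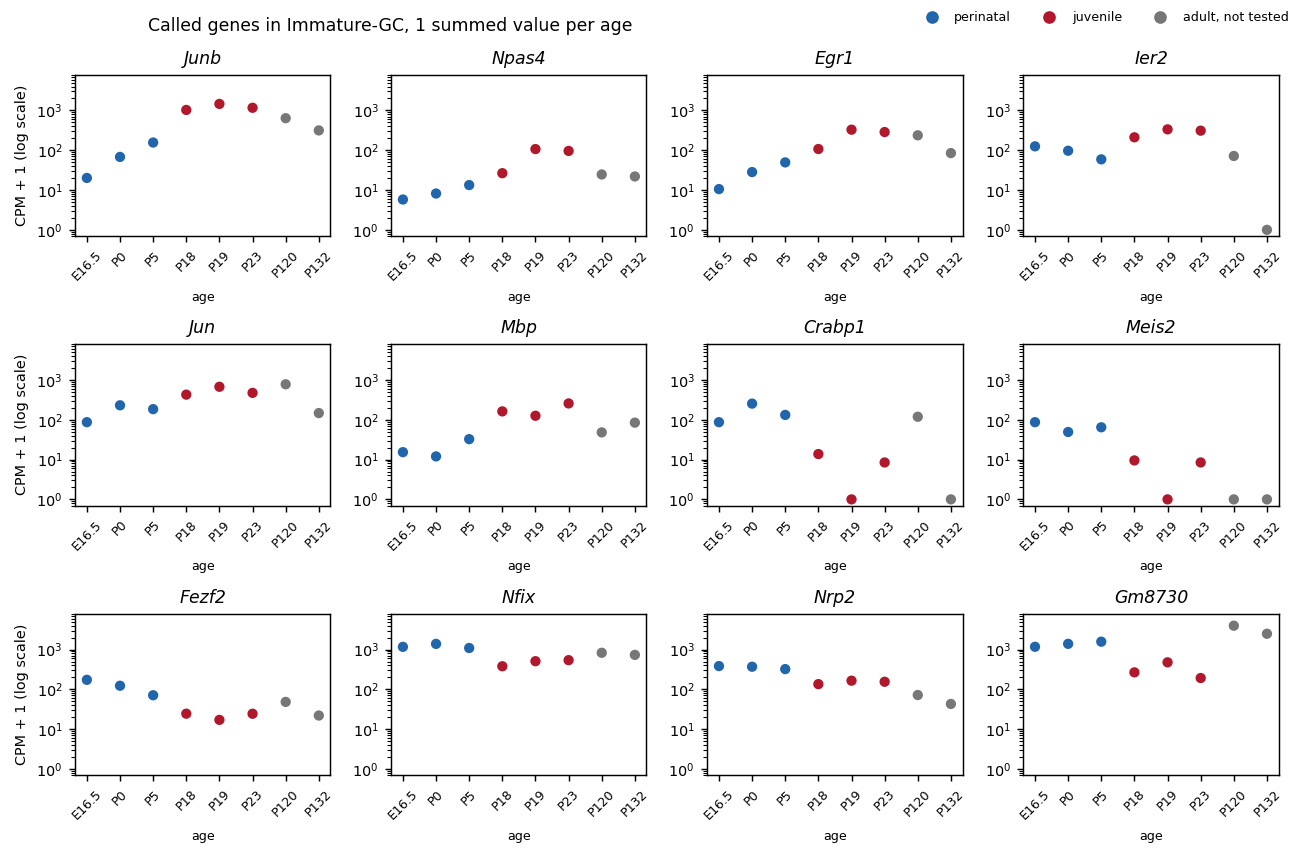
CPM + 1 on a log axis (vertical) by age (horizontal) for 12 genes that passed the test between stages in Immature-GC, 1 point per age, with perinatal, juvenile and untested adult ages in different colours. The 3 perinatal points lie below all juvenile points for Junb, Npas4, Egr1, Ier2, Jun and Mbp and above them for Crabp1, Meis2, Fezf2, Nfix, Nrp2 and Gm8730, and Gm8730 is highest in adults (3971 and 2492 CPM).

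The newborn neuron list was lower in juveniles as a group of values, and the number of its genes past the test differed between tools. Its summed level was 57917, 52156 and 39112 CPM at the perinatal and 25716, 28776 and 29846 CPM at the juvenile ages, and 30325 and 34622 CPM in adults. Of 18 genes, 16 had negative changes (median -0.88), 2 fell and none rose in edgeR, while DESeq2 called 10 lower and 0 higher. The 2 were Map1b, a microtubule-associated protein of growing axons, from 1722, 1740 and 1597 CPM to 604, 701 and 941 CPM (1.18 ± 0.22, edgeR adjusted p 0.0376), and the actin-sequestering thymosin Tmsb4x, from 20928, 13991 and 12807 CPM to 5865, 5127 and 8229 CPM (1.34 ± 0.26, edgeR adjusted p 0.0450). Both calls were lost without E16.5, P0, P18, P19 or P23, and 10 of the 18 fell without P5. In all other cells both genes also fell without overlap. There Map1b went from 1269, 1654 and 949 CPM to 558, 597 and 589 CPM. Tmsb4x went from 13633, 11085 and 10041 CPM to 4161, 4121 and 7176 CPM. Dcx had a change of -1.01 ± 0.21 (edgeR adjusted p 0.0577) and Cd24a one of -1.40 ± 0.31 (0.0668), neither past the test. Among lineage transcription factors 0 of 16 passed in edgeR, and 5 had negative changes at an unadjusted p under 0.05 (Sox11 -1.25, Emx1 -1.08, Sox4 -1.06, Neurod1 -0.95 and Nfib -0.74), with 3 lower calls in DESeq2. Prox1 changed by -0.04 ± 0.22. Of 18 migration and guidance genes tested, Nrp2 alone passed (list median -0.05).

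Genes of synaptic function had mostly positive changes, none of which passed the test. All 9 GABA-A receptor and chloride transport genes tested were positive (median 0.78), with Slc12a5 at 4.78, 12 and 54.8 CPM and then 76.6, 45 and 79.3 CPM (1.20 ± 0.51, edgeR adjusted p 0.327). Its counterpart Slc12a2, which encodes NKCC1, stood at 4.78, 10.1 and 14.3 CPM and then at 27.7, 51.4 and 12.1 CPM (1.18 ± 0.49, edgeR adjusted p 0.314). P5 was close to or within the juvenile range for both. Of 16 glutamate receptor and postsynaptic genes 12 were positive (median 0.47), and of 14 vesicle genes 11 (median 0.29). Of 9 sodium pump genes 8 were positive (median 1.09), and all 6 mature granule cell markers that passed the filter on low counts, of 16 listed, were positive (median 0.87). None of the genes of these 5 lists passed in edgeR, while 5 of the GABA-A, 3 of the glutamate, 2 of the vesicle, 5 of the sodium pump and 1 of the mature genes were higher at an unadjusted p under 0.05. In DESeq2 1 sodium pump gene was called higher and 0 genes of the other 4 lists. Without P5, 5 of 9 GABA-A, 6 of 15 glutamate, 4 of 14 vesicle, 6 of 9 sodium pump and 4 of 5 mature genes were called higher. The summed mature markers show the place of P5: 124 and 288 CPM at E16.5 and P0, 1050 CPM at P5, and 802, 447 and 1229 CPM at the juvenile ages.

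RNA of other cell types moved with stage in these sums. Mbp, the myelin basic protein gene of oligodendrocytes, rose from 14.4, 11 and 31.6 CPM to 162, 125 and 257 CPM (3.13 ± 0.40, edgeR adjusted p 0.00524, highest 0.0430 over alternatives). In all other cells it stood at 3.58, 6.18 and 73.3 CPM and then at 1009, 729 and 1608 CPM. After thinning, 11.7%, 5.48% and 17.2% of Immature-GC cells at P18, P19 and P23 held an Mbp UMI, against 5.62%, 5.26% and 21.7% of endothelial cells. Of the 8 oligodendrocyte markers 2 passed the filter on low counts and both rose, and the list summed to 14.4 to 56.6 CPM at the perinatal and 304 to 486 CPM at the juvenile ages. With no filter on low counts all 8 were called higher in juveniles (median 3.78). The defining markers Mog (2.13 to 6.43 CPM) and Mal (0 to 2.80 CPM) were among them, at low levels in juveniles. Microglial markers reached at most 42.0 CPM in sum and endothelial markers 19.3 CPM. Astrocyte markers summed to 139 to 272 CPM and then to 328 to 385 CPM, and 0 of 3 tested passed in edgeR or DESeq2, with 2 higher at an unadjusted p under 0.05 in edgeR. The part of free RNA in the rise of Mbp was not tested.

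Haemoglobin genes were the counterpart on the perinatal side. Hba-a1 and Hbb-bs were called lower in juveniles, where they had 28 and 11 UMIs, and so was Hbb-bt with 3. The cell with the most haemoglobin UMIs accounted for 98.9% of the cluster's total at E16.5, 99.4% at P0 and 50.4% at P5, where 686 cells had at least 1. Without the cell with the most haemoglobin at each age, a setting chosen after seeing the data, Hba-a1 and Hbb-bs lost their calls and 36 genes passed. The list summed to 776 to 24751 CPM perinatally and to 14.9 to 38.6 CPM in juveniles.

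A last group were copies of ribosomal protein genes. Gm8730, a processed pseudogene of the Rplp0 family, fell from 1172, 1389 and 1574 CPM to 266, 476 and 191 CPM (2.18 ± 0.30, edgeR adjusted p 0.00842, lost without P18 at 0.0704), and it stood at 3971 and 2492 CPM in adults. All other cells also had their lowest levels at the juvenile ages, with 1192 to 1305 CPM perinatally and then 69.1 to 128 CPM. Their adult levels, 1169 and 564 CPM, lay below the perinatal ones, unlike those of Immature-GC. Of its 31-base words 88.3% occur in other genes, so its reads may be shared with them. Rpl23a-ps3 (1.62), Rpl9-ps6 (1.61) and Gm11808 (1.55) rose, and they share 93.2%, 92.7% and 94.7% of their words with other genes. Their edgeR adjusted p were 0.0279, 0.0279 and 0.0263, and each call was lost without P0, P18 or P19. These were not the only losses for Rpl9-ps6, which was called in 8 of 12 alternatives. In all other cells the stages overlapped for Rpl23a-ps3 (179, 157 and 120 CPM and then 157, 170 and 116 CPM) and for Gm11808 (146, 113 and 90.7 CPM and then 165, 151 and 122 CPM). Rpl9-ps6 rose there without overlap, from 51.4, 43.0 and 29.7 CPM to 71.4, 79.8 and 53.1 CPM. Of 82 ribosomal protein genes 0 passed in edgeR (median -0.14), with 9 higher and 11 lower at an unadjusted p under 0.05, and DESeq2 called 3 higher and 3 lower. All 13 mitochondrially encoded genes had positive changes (median 0.53), of which 0 passed in edgeR, 6 had an unadjusted p under 0.05 and 3 were called higher in DESeq2.

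To ask whether these changes also occurred in the preceding class, the stage change of Immature-GC was tested against that of Neuroblast in 1 model with age as a block, since the 2 clusters of an age come from the same animals. The Neuroblast sums came from 206, 456 and 426 cells at E16.5, P0 and P5, but from only 24, 67 and 47 at P18, P19 and P23. Juvenile neuroblast values thus rest on few cells and few UMIs. Of 8755 genes, 3 passed (0.0343%), 2 with a more positive change in Immature-GC (0.0228%) and 1 with a more negative one (0.0114%), and 547 had an unadjusted p under 0.05. With no replicate block 0 passed, with 327 at an unadjusted p under 0.05 (edgeR). The number passing was 1 without P0, 19 without E16.5, 39 without P5, 5 without P18, 17 without P19, 6 without P23 and 17 without the 5% of cells with the most UMIs.

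Junb in neuroblasts stood at 29.1, 50.1 and 63.8 CPM at the perinatal and at 170, 227 and 161 CPM at the juvenile ages. Immature-GC thus went from 19.1 to 155 CPM perinatally to 1030 to 1459 CPM, and the difference of the changes was 2.13 ± 0.33 (log2 ± SE, 6 ages, edgeR adjusted p 0.000503). The call was lost without P0 (0.0978) and after thinning every cell (0.214), besides the model without the block. In GC-juv, the class that follows, Junb stood at 312, 192 and 674 CPM at P18, P19 and P23, below Immature-GC at each age. At the juvenile ages Junb was thus highest in the middle class of the 3.

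Egr1 followed another course. In neuroblasts it stood at 28.3, 112 and 167 CPM perinatally, above Immature-GC at each of the 3 ages, and at 122, 262 and 226 CPM at the juvenile ages, where Immature-GC had 106, 328 and 286 CPM. The difference of the changes was 2.25 ± 0.32 (edgeR adjusted p 0.000150), called in 11 of 12 alternatives. Juvenile granule cells had 58.3, 45.6 and 82 CPM.

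Nrgn, which encodes the postsynaptic calmodulin-binding protein neurogranin, went the other way. In Immature-GC it had 9.57, 459 and 837 CPM at E16.5, P0 and P5 and 479, 418 and 704 CPM at P18, P19 and P23, an overlap between stages (0.27 ± 0.66, edgeR adjusted p 0.912). In neuroblasts it had 0, 12.7 and 38.4 CPM and then 97.3, 184 and 71.4 CPM. The lead of Immature-GC over Neuroblast thus shrank from 3.40 to 5.07 on the log2 scale perinatally to 1.18 to 3.28 in juveniles (difference -2.44 ± 0.43, edgeR adjusted p 0.00546). It was called in 7 of 12 alternatives and lost in DESeq2 (0.293), after thinning (0.131), without P0 (0.308) or P19 (0.454) and without the block. The share of thinned juvenile neuroblasts with an Nrgn UMI was 8.33%, 23.9% and 12.8%, against 3.37%, 16.8% and 8.33% of endothelial cells at the same ages, with median depths of 1609 to 3134 and 2141 to 3855 UMIs. Nrgn reached 909 to 1076 CPM in GC-juv at these ages, and the part of free RNA from granule cells in the neuroblast values was not tested.

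**Figure D4:**
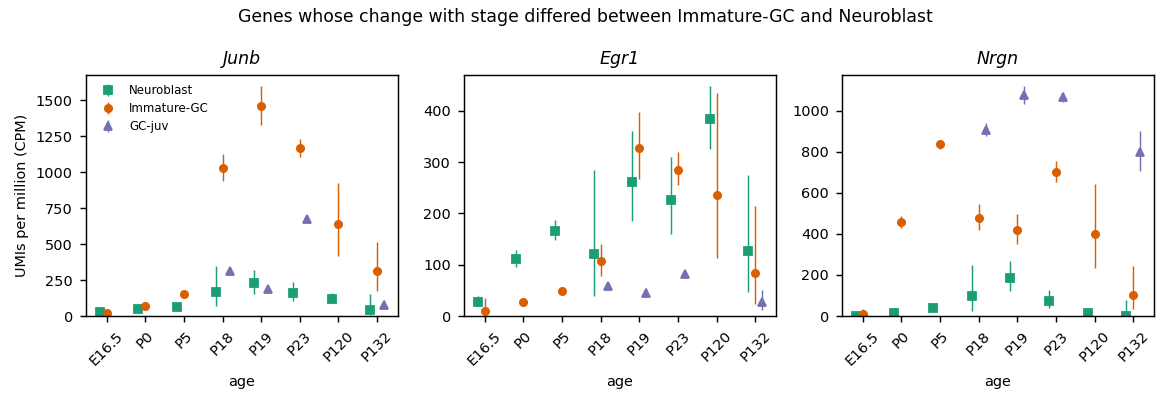
CPM (vertical axis) of Junb, Egr1 and Nrgn by age (horizontal axis) in Neuroblast, Immature-GC and GC-juv, with bars for the 95% Poisson interval of counting error. Junb in Immature-GC reaches 1030 to 1459 CPM at the juvenile ages, above both neighbours, while Nrgn in Immature-GC is already at 459 CPM at P0.

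Within an age the cells of the class varied, as seen once each was thinned to 1000 UMIs. The 18 newborn neuron genes gave a median of 58, 52 and 40 UMIs per cell at E16.5, P0 and P5 and 25, 28 and 31 at P18, P19 and P23. The 10th percentile at E16.5, 42, lay above the 90th percentile at each juvenile age (33.4, 38.5 and 40). The glutamate, vesicle and mature granule cell lists together (48 genes) gave a median of 3, 4 and 7 UMIs and then 7, 6 and 7. P5 was as broad in these lists as the juveniles, with a 10th to 90th percentile of 3 to 16 UMIs against 3 to 13 at P18 and 3 to 18 at P23.

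Immediate early gene UMIs were spread unevenly over the cells. Their median was 1 at each perinatal age and 1, 3 and 2 at the juvenile ages, but the 90th percentile rose from 3 at all perinatal ages to 8, 14 and 10. Most cells held at least 1: the share with none was 35.1%, 36.9% and 36.0% at the perinatal and 31.9%, 19.9% and 25.0% at the juvenile ages. After thinning, 2.70%, 6.19% and 12.8% of perinatal cells held a Junb UMI, and 38.1%, 47.3% and 43.1% of juvenile cells, where unthinned shares were 10.8%, 22.2% and 41.1% and then 52.5%, 56.2% and 69.0%. Endothelial cells also express Junb (24.2% to 70.6% after thinning at the unsorted ages), so they give no background level for it. Cells with a Junb UMI held Fos more often than cells without: 26.0% against 5.88% at P18 (104 and 153 cells), 64.5% against 20.2% at P19 (62 and 84) and 56.1% against 15.7% at P23 (98 and 134). At P0 the shares were 33.3% and 11.5%, and at P5 38.3% and 17.2%. Cells of 1 age share their animals and dissociation, and these shares carry no test.

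**Figure D5:**
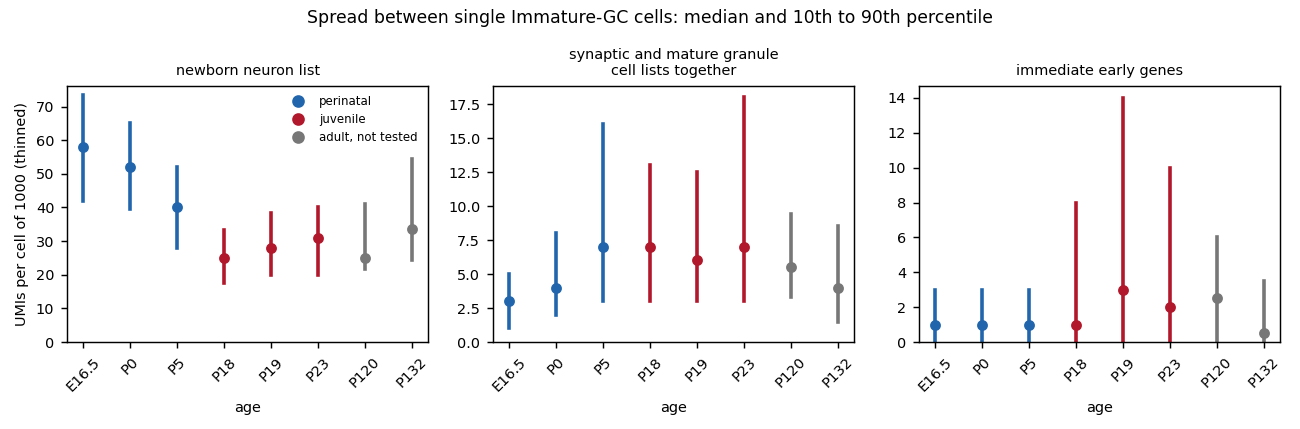
UMIs per Immature-GC cell of 1000 after thinning (vertical axis) by age (horizontal axis) for 3 gene lists, with a point at the median cell and a line from the 10th to the 90th percentile of cells. The newborn neuron list declines from a median of 58 UMIs at E16.5 to 25 at P18, and the immediate early genes spread upward at the juvenile ages (90th percentile 8 to 14).

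In adults the class was small, 14 cells at P120 and 26 at P132, and its values carry counting intervals only (95%, exact Poisson). Junb stood at 638 CPM (421 to 929) at P120 and 314 CPM (176 to 518) at P132, below all juvenile ages. Calb2 was at 118 CPM (38.4 to 276) at P120 and 796 CPM (563 to 1092) at P132, so the 2 adult ages differed by more than counting error. Sox11, a SOX factor of newborn neurons, stood at 2080 and 1089 CPM, against 894, 1591 and 899 CPM at P18, P19 and P23. Crabp1 had no UMI at P132, which allows up to 77.3 CPM by the same interval. No adult value was tested, because the sort for GFP cannot be told apart from age.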

How the data were processed

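The deposited values are UMI counts (whole numbers) of 27933 genes in 24185 cells from 11 libraries, and per the labels they come from the 10X Chromium kit, version 2. Cell Ranger and the genome build mm10 are named in the submitters' processing notes, and cell filters are not given in the sources used here. A deposited barcode table (text labels, no score) gives age, strain, sex and the authors' cluster of each cell, and 0 columns of cells were left unused. No doublet caller was run, and an alternative left out the 5% of cells with the most UMIs per age.

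Counts were summed per cluster and age (20 or more cells for a test) and tested with edgeR 4.0.16 (R 4.3.3, limma 3.58.1): TMM scaling, filterByExpr, quasi-likelihood F test, two-sided, Benjamini-Hochberg over all genes tested, threshold 0.05. The SE was derived from F, as |log2 fold change|/√F. The unit of replication is the age, and p-values measure the spread between ages. The difference from Neuroblast was an interaction term with age as a block. The pairing rests on shared animals: with class means removed, the 2 clusters of an age correlated across 3014 genes with r of 0.137 to 0.633, each above every r with another age. Alternatives were RLE scaling, no filter, DESeq2 1.42.0, thinning to 1000 UMIs, left-out cells and each age left out. The tests were run on simulated counts first. Intervals cover counting error only. Python 3.11.15 (pandas 2.3.3, scipy 1.17.1) was used for descriptions, with a pseudocount of 1 CPM in comparisons of clusters.

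Genes named from the stage test had no overlap between stages, averaged at least 20 CPM and passed 0.05 after adjustment, the 12 largest changes each way being taken. Also named are list members, markers and a few further called genes (Nfix, Lhx2, Nrp2, Map1b, Tmsb4x, Gm11808), the latter chosen after their values were seen. Counts include 1 gene meeting the rule that is not reported here. The members and lists were chosen with earlier results of these data known. Promoters are from RefSeq, gene positions from GENCODE.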

Additional observations from a re-analysis of the deposited data

Results flagged for a closer look

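The stage test against Neuroblast named 3 genes that changed between stages by a different amount in Immature-GC than in Neuroblast, by a test of the difference itself (edgeR interaction term, 6 ages): Egr1 by 2.25, Junb by 2.13 and Nrgn by -2.44 on the log2 scale, in each case with the lead of Immature-GC at every juvenile age on the same side of that at every perinatal age. The cause was not tested.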

How the results depend on the processing

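In the stage test of Immature-GC the 39 genes became 41 with RLE scaling, 396 with no filter on low counts, 144 in DESeq2, 35 with every cell thinned, 27 without the cells with the most UMIs, 36 without the cell with the most haemoglobin, and 10 to 559 with 1 age left out. DESeq2 gave no adjusted p for 4568 of the 7594 genes, its own filter on low counts. All 39 were among the 41, the 396 and the 559 without P5, 25 among the 144. Of the 24 genes named by the rule, all kept their direction wherever they were tested, and the call was kept by 22 without E16.5, 10 without P0, 24 without P5, 7 without P18, 11 without P19 and 6 without P23. In the paired test against Neuroblast the 3 genes became 4 with RLE scaling, 25 with no filter on low counts, 2 in DESeq2, 2 with thinning, 17 without the cells with the most UMIs, 0 with no replicate block, and 1 to 39 with 1 age left out (19 without E16.5). The log2 ratio of Immature-GC to Neuroblast cells was 1.53 to 3.55 higher in juveniles with 1 age left out, 2.64 with progenitors added to the reference and 2.52 with 1 library of P0 and P5. Causes of these shifts were not tested, except that leaving out an age leaves 2 against 3. No paired analysis was possible for the stage test because no animal was sampled at 2 ages. Depth limits genes of few juvenile UMIs, since P19 had 311092 UMIs against 6801553 at P5.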
